A study of Homo sapiens with 10 samples.

Results

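The replication-dependent histone genes encode the linker histone H1 and the core histones H2A, H2B, H3 and H4 that package new DNA. They were taken from the count tables by gene symbol: every protein-coding gene named H1-1 to H1-5, or with an H2AC, H2BC, H3C or H4C symbol followed by a number, which are the current names of the genes once called HIST1H to HIST4H. This rule gave 68 genes of 59204, of which 5 encode H1, 17 H2A, 18 H2B, 13 H3 and 15 H4. In the tables' annotation, 54 lie on chromosome 6, 13 on chromosome 1 and 1 on chromosome 12.

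Replication-dependent histone genes are transcribed mainly in S phase, when DNA is copied, from a nuclear body organised by the coactivator NPAT. Their mRNA is unusual in that it normally has no poly(A) tail: the stem-loop binding protein SLBP binds a conserved RNA hairpin after the coding sequence, and U7 snRNP and its partner proteins direct cleavage just past it. The genes can also give polyadenylated mRNA when transcription runs on to a poly(A) signal further downstream, and such forms are known from differentiated and tumour cells. The libraries here were primed on poly(A), so the values below are taken to concern that polyadenylated fraction and not the hairpin-ended mRNA. Whether each read came from an RNA with a poly(A) tail was not tested.

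The samples were cultures of K562, a cell line established from a chronic myeloid leukemia. Each received DMSO, the solvent control, or 1 of 4 compounds aimed at RNA polymerase II or its cofactors, for 2 h. JQ1 (1 µM) displaces bromodomain proteins from acetylated chromatin. A-485 (1 µM) inhibits the acetyltransferases p300 and CBP, AZ-5576 (1 µM) inhibits the elongation kinase CDK9, and actinomycin D (1 µg/mL) intercalates in DNA and blocks RNA polymerases. All groups, DMSO included, received 100 µM 4-thiouridine during the last 1 h, and each group had 2 libraries. Thiouridine built into RNA made in that hour is alkylated and then read as a T-to-C change, which gives a count of labelled reads beside the count of all reads (total RNA) for each gene. Because drug and label overlapped for only part of the treatment, labelled RNA is what was made in the second hour and was still present at its end.

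The 10 libraries held 14916671 to 17918971 human counts each. RNA of Drosophila S2 cells, added to the purified RNA at 5%, gave 1817677 to 2212752 spike-in counts per library, and all levels and tests below are relative to that spike-in. It was added after extraction, so it corrects for library yield and not for cell number. Labelled counts per library were 434411 to 448401 with DMSO and 322771 to 342847 with JQ1, but 53503 to 62513 with AZ-5576 and 1410 to 1614 with actinomycin D. All 10 of the erythroid and megakaryocytic markers listed for K562 had at least 100 counts in every library. The B cell gene MS4A1, the granulocyte gene MPO and the keratinocyte gene KRT5, each a defining marker of another cell type, were at 0 in all libraries. The labels do not say whether replicates were separate cultures, so the p-values measure the spread between these libraries. Fewer cells of a kind (cells in S phase, for example) and less RNA per cell cannot be told apart in such bulk samples.

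Both ways of ending the mRNA can be read in the sequences of the genes, which are shown because the libraries were primed on poly(A). A search of the GENCODE 29 transcripts (GRCh38) for the histone hairpin, 16 bases long with its variable positions left free, found it in 31 of the 68 genes. The models of 34 of the 68 end at the stop codon and hold no 3′ UTR, so the hairpin could not be looked for there. Below, the hairpin is in capitals with 5 bases on each side, 5′ to 3′ on the gene's strand.
H4C14 (chr1:149833027-149833052, plus strand): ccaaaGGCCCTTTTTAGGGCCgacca
H4C15 (chr1:149860764-149860789, minus strand): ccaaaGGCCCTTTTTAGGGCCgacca
H3C10 (chr6:27810511-27810536, plus strand): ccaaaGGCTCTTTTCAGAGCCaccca
H2BC5 (chr6:26158582-26158607, plus strand): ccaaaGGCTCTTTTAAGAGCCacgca
H2AC6 (chr6:26124664-26124689, plus strand): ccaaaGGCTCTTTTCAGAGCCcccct
H2AC11 (chr6:27133510-27133535, plus strand): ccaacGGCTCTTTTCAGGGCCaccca
The same core as in H3C10 and H2AC6, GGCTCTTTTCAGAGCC, was in 17 genes, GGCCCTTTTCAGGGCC in 5, the H2BC5 core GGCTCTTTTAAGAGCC in 4, and the core of H4C14 and H4C15, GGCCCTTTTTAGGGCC, in 3.

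The other kind of end lies downstream. A poly(A) signal (AATAAA or ATTAAA) stood within the last 60 bases of an annotated transcript in 23 of the 68 genes. The last 30 bases of such transcripts follow, with the signal in capitals.
H4C15 (chr1:149860079-149860108, minus strand): ttcAATAAAaagcctcctaatttaatcaag
H3C10 (chr6:27811271-27811300, plus strand): atgactaAATAAAatctgtataatccccac
H2BC5 (chr6:26171320-26171349, plus strand): taattAATAAAatctgcggagaattgtaaa
H2AC6 (chr6:26139073-26139102, plus strand): agcctggcatgaggtAATAAAaggtaatgc
H2BC21 (chr1:149884459-149884488, minus strand): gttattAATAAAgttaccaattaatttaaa
H2AC11 (chr6:27135262-27135291, plus strand): aattcatAATAAAgtgaaatgttcaagttc
In H2BC5 and H2AC6 the signal lay far downstream of the hairpin on the genome, as their coordinates show. That distance is not a length of mRNA. The hairpin and signal shown for H2BC5 come from different annotated transcripts, and at most 39 transcript bases followed the hairpin. In H2AC6 at most 1128 transcript bases followed it.

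Most of the family gave few or no reads. In total RNA 25 of the 68 genes reached 10 counts in 2 or more libraries and were tested (1 H1, 8 H2A, 9 H2B, 3 H3 and 4 H4). A further 22 had some counts, never more than 11 in a library, and 21 were at 0 in every library. In labelled RNA 17 genes were tested (1 H1, 6 H2A, 6 H2B, 2 H3 and 2 H4), 8 more had some counts and 43 were at 0. Of the genes with an annotated poly(A) signal, 16 of 23 were tested in total RNA, against 9 of the 45 without one. These shares depend on the gene models as well as on the counts.

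H1-2 (chr6:26055787-26056428, minus strand), a linker histone gene, held 89084 of the 144222 total counts of the family. Next came H2BC11 with 10035, H2AC6 with 9673, H2BC5 with 9110 and H3C10 with 6701 counts over the 10 libraries. These are counts at 3′ ends and are not divided by length. The GENCODE 29 model of H1-2 ends at the stop codon and holds no 3′ UTR. Neither the hairpin nor a poly(A) signal could therefore be looked for past its coding sequence.

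With JQ1 the labelled RNA of the family rose while labelled RNA as a whole fell. The family summed to 282 and 272 labelled counts in the DMSO libraries and to 1251 and 1132 with JQ1. Per 1000 spike-in counts this was 0.149 ± 0.000614 with DMSO and 0.551 ± 0.0209 with JQ1 (mean ± SD, n = 2), or 369% of DMSO, and the groups did not overlap. The labelled counts of all genes together stood at 64.7% of DMSO. By class, the JQ1 level was 147% of DMSO for H1, 352% for H2A, 306% for H2B, 379% for H3 and 1382% for H4.

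Gene by gene, 12 of the 17 tested members were higher with JQ1 in labelled RNA and 0 were lower (edgeR quasi-likelihood test with Benjamini-Hochberg adjustment over 7996 genes, adjusted p below 0.05, called an edgeR-adjusted p hereafter). At an unadjusted p below 0.05, 14 were higher and 0 lower, and DESeq2 called 11 higher and 0 lower. Of all genes tested, 1.26% were higher and 28.6% lower. The median over all genes was -0.85 on the log2 scale. The count of members was 7 without DMSO replicate 2 and 9 to 10 without any other library of these groups, while over all genes the 101 higher became 51 to 61 and the 2286 lower became 1049 to 1675. However, 9 of the 17 reached the count minimum only through the JQ1 libraries, so a rise was built into their being tested. Of the 8 that reached it without them (H1-2, H2AC6, H2AC25, H2BC5, H2BC11, H2BC15, H2BC21 and H3C10), 6 rose and 0 fell, with a median of 1.56.

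**Figure D1:**
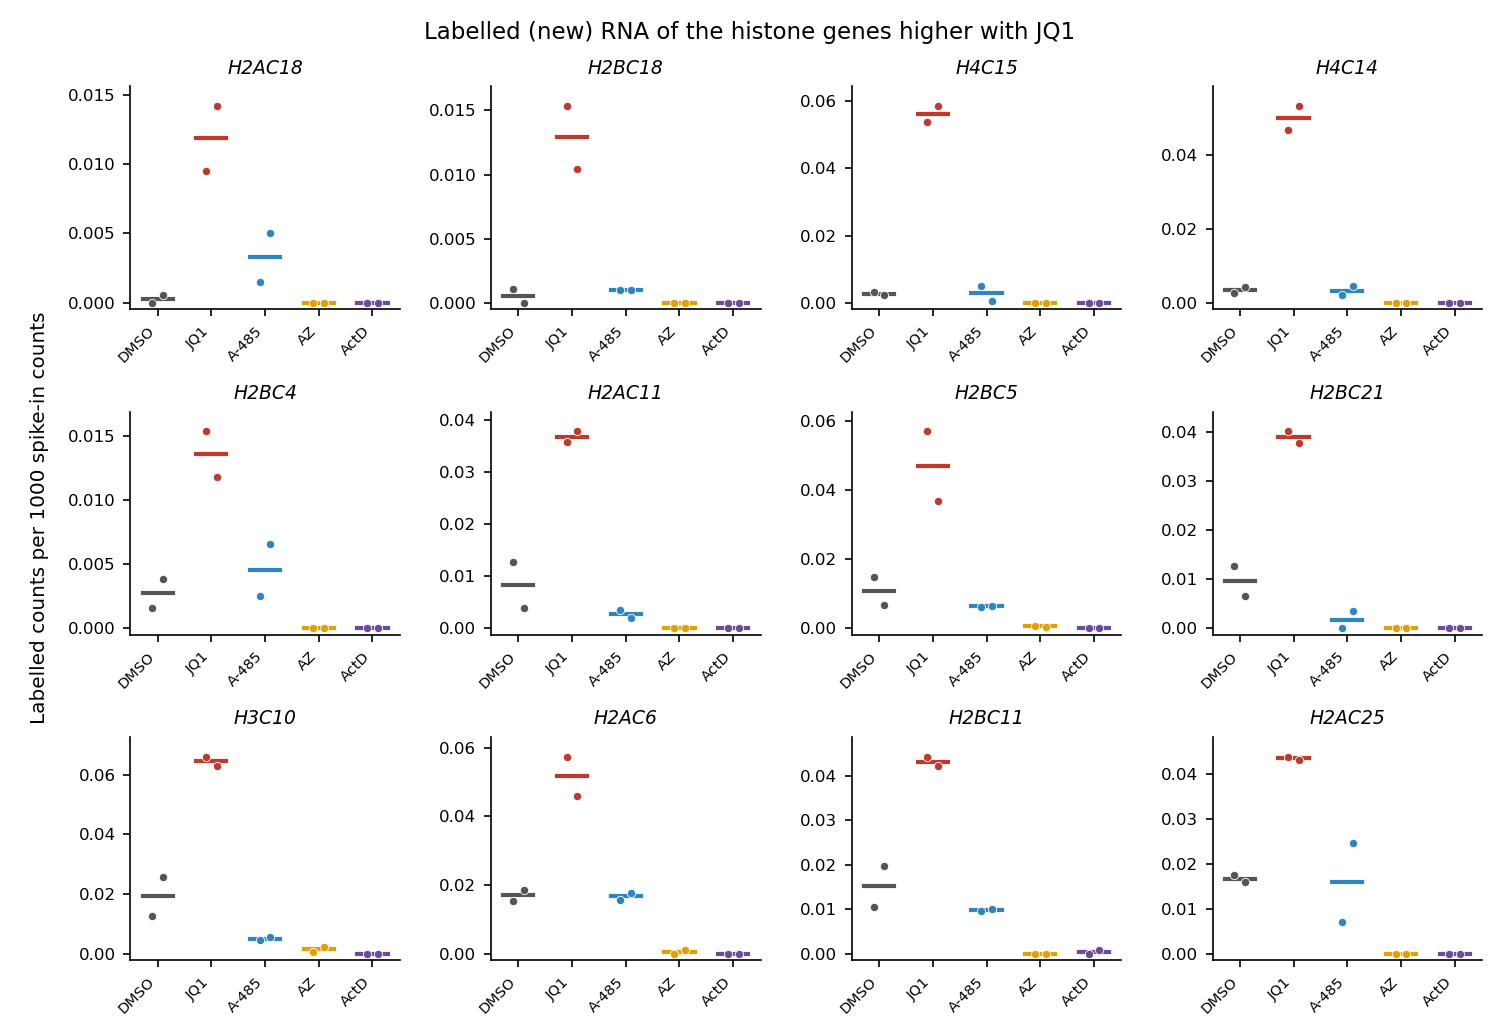
Labelled counts per 1000 spike-in counts (vertical axis) of the 12 members called higher with JQ1, in the 5 groups (horizontal axis); each point is a library and each line the mean of 2. In every panel both JQ1 points lie above both DMSO points, and the AZ-5576 and actinomycin D points lie at or near 0.

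Both H4 genes tested in labelled RNA rose, with the smallest p-values of the family. Both reached the count minimum only through the JQ1 libraries, so a rise was built into their being tested. H4C3, an H4 gene below that minimum, had 0 and 6 labelled counts with DMSO and 1 and 4 with JQ1. H4C15 had 6 and 4 labelled counts with DMSO and 119 and 124 with JQ1, a log2 fold change of 4.35 ± 0.55 (SE, n = 2 against 2, edgeR-adjusted p = 5.07e-13). For H4C14 the counts were 5 and 8 with DMSO and 104 and 113 with JQ1 (log2 3.82 ± 0.54, edgeR-adjusted p = 2.37e-10). The JQ1 libraries stood far above all 8 others in both genes. H4C14 and H4C15 encode histone H4 from a duplicated stretch of chromosome 1, and their promoters were identical over 300 of 300 bases. How reads that match both copies were counted is not given in the sources used here, so the split between them is uncertain. H4C14 and H3C14 also overlap on opposite strands, as do H4C15 and H3C15, and the use of strand in counting is likewise not given.

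A pair of genes on chromosome 1 had even larger fold changes on very few control counts. H2AC18 (chr1:149842188-149842736, minus strand), an H2A gene, had 0 and 1 labelled counts with DMSO and 21 and 30 with JQ1. Its spike-in scaled ratio was 43.8, with an exact counting interval of 7.51 to 1763 (95%), and the fitted log2 fold change was 5.16 ± 1.21 (edgeR-adjusted p = 0.000277). H2BC18 (chr1:149782689-149812373, minus strand), an H2B gene, had 2 and 0 counts with DMSO and 34 and 22 with JQ1, a ratio of 24.0 with an interval of 6.35 to 203. The intervals show how little the control level is known, and they cover counting error only. Without 1 DMSO library the fitted value of H2AC18 was 4.28 or 7.59, and that of H2BC18 was 7.71 without replicate 1 and 3.54 without replicate 2 (edgeR-adjusted p = 0.0515, no longer called). H2BC18 overlaps FCGR1A on the opposite strand, and H2AC18 has a near-identical neighbour, H2AC19.

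Among the better counted genes, H3C10 (chr6:27810064-27811300, plus strand), which encodes histone H3, had 24 and 47 labelled counts with DMSO and 146 and 133 with JQ1 (log2 1.74 ± 0.37, edgeR-adjusted p = 5.75e-05). H2BC5 (chr6:26158146-26171349, plus strand), an H2B gene, had 28 and 12 with DMSO and 126 and 78 with JQ1 (log2 2.12 ± 0.44, edgeR-adjusted p = 3.87e-05). H2BC21 (chr1:149884459-149886652, minus strand), also an H2B gene, had 24 and 12 with DMSO and 89 and 80 with JQ1 (log2 2.01 ± 0.48, edgeR-adjusted p = 0.000408). In these 3 genes the lower JQ1 count was well above the higher DMSO count, although the DMSO replicates also differed from each other. H2BC21 passed the test in edgeR but not in DESeq2 (log2 2.02, DESeq2-adjusted p = 0.469) or without DMSO replicate 2 (log2 1.62, edgeR-adjusted p = 0.0655). H2BC5 reached 2.82 without DMSO replicate 1 and H3C10 2.34 without DMSO replicate 2, each still called.

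Besides H2AC18, 3 H2A genes rose. H2AC6 (chr6:26124145-26139116, plus strand) had 29 and 34 labelled counts with DMSO and 127 and 97 with JQ1 (log2 1.60 ± 0.39, edgeR-adjusted p = 0.000433). H2AC11 (chr6:27133042-27135291, plus strand) had 24 and 7 with DMSO and 79 and 80 with JQ1 (log2 2.14 ± 0.50, edgeR-adjusted p = 0.000255). The H2AC11 value rested on which control was used: it was 3.23 without DMSO replicate 1 and 1.53 without DMSO replicate 2 (edgeR-adjusted p = 0.0855). H2AC25 (chr1:228456979-228457873, minus strand) had 33 and 29 with DMSO and 97 and 91 with JQ1 (log2 1.38 ± 0.40, edgeR-adjusted p = 0.00453), and was not called without either DMSO library (1.44 and 1.32, edgeR-adjusted p = 0.0606 and 0.0840).

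A pair of H2B genes completed the 12. H2BC11 (chr6:27125897-27132750, minus strand) had 20 and 36 labelled counts with DMSO and 98 and 89 with JQ1 (log2 1.51 ± 0.42, edgeR-adjusted p = 0.00268), and 1.12 without DMSO replicate 1 (edgeR-adjusted p = 0.153). H2BC4 (chr6:26114873-26123926, minus strand) had 3 and 7 with DMSO and 34 and 25 with JQ1 (log2 2.31 ± 0.77, edgeR-adjusted p = 0.0144). Its call was lost with 3 of the 4 libraries left out in turn: without DMSO replicate 1 it was 1.80 (edgeR-adjusted p = 0.202), without DMSO replicate 2 it was 3.06 (0.0513), and without JQ1 replicate 1 it was 2.10 (0.0874).

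The 5 members that did not pass were mixed. H1-2 had 41 and 20 labelled counts with DMSO and 35 and 68 with JQ1 (log2 0.55 ± 0.47, edgeR-adjusted p = 0.379), so its groups overlapped. H2BC15 (chr6:27837760-27865798, plus strand), an H2B gene that overlaps H2AC15 and H2AC16, had 33 and 41 with DMSO and 54 and 24 with JQ1 (log2 -0.15 ± 0.46, edgeR-adjusted p = 0.819). H3C14, H2AC8 and H2AC19 had at most 4 labelled counts in a DMSO library and 12 to 23 in a JQ1 library, with edgeR-adjusted p-values of 0.0516, 0.0893 and 0.157. Among the 12 called, H4C14, H4C15, H2AC18, H2BC18, H2AC11 and H2BC4 reached the count minimum in labelled RNA only through the JQ1 libraries. The same held for H3C14, H2AC8 and H2AC19. All of these could be tested only because they were high with JQ1.

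The rise with JQ1 was also present in total RNA, and was smaller. The family's total level was 6.99 ± 0.200 per 1000 spike-in counts with DMSO and 8.60 ± 0.240 with JQ1 (mean ± SD, n = 2), which is 123% of DMSO. Most of that sum was H1-2. H1-2 had 8216 and 8130 total counts with DMSO and 9827 and 9248 with JQ1, which after spike-in scaling was a log2 fold change of 0.00 ± 0.09 (edgeR-adjusted p = 0.995). By class the JQ1 level was 161% of DMSO for H2A, 149% for H2B, 186% for H3 and 285% for H4.

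In total RNA 12 of the 25 tested members were higher with JQ1 and 0 lower by edgeR, with 19 higher and 0 lower at an unadjusted p below 0.05 and 11 and 0 by DESeq2. Of the 14572 genes tested, 0.837% were higher and 7.35% lower. The median over all genes was -0.19. Of the 21 members that reached the count minimum without the JQ1 libraries, 11 rose and 0 fell, with a median of 0.62. Over all genes, leaving out a library gave 64 to 129 higher against 122, and 277 to 973 lower against 1071. H2AC19, H2BC26, H3C14 and H4C15 reached it only through JQ1.

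**Figure D2:**
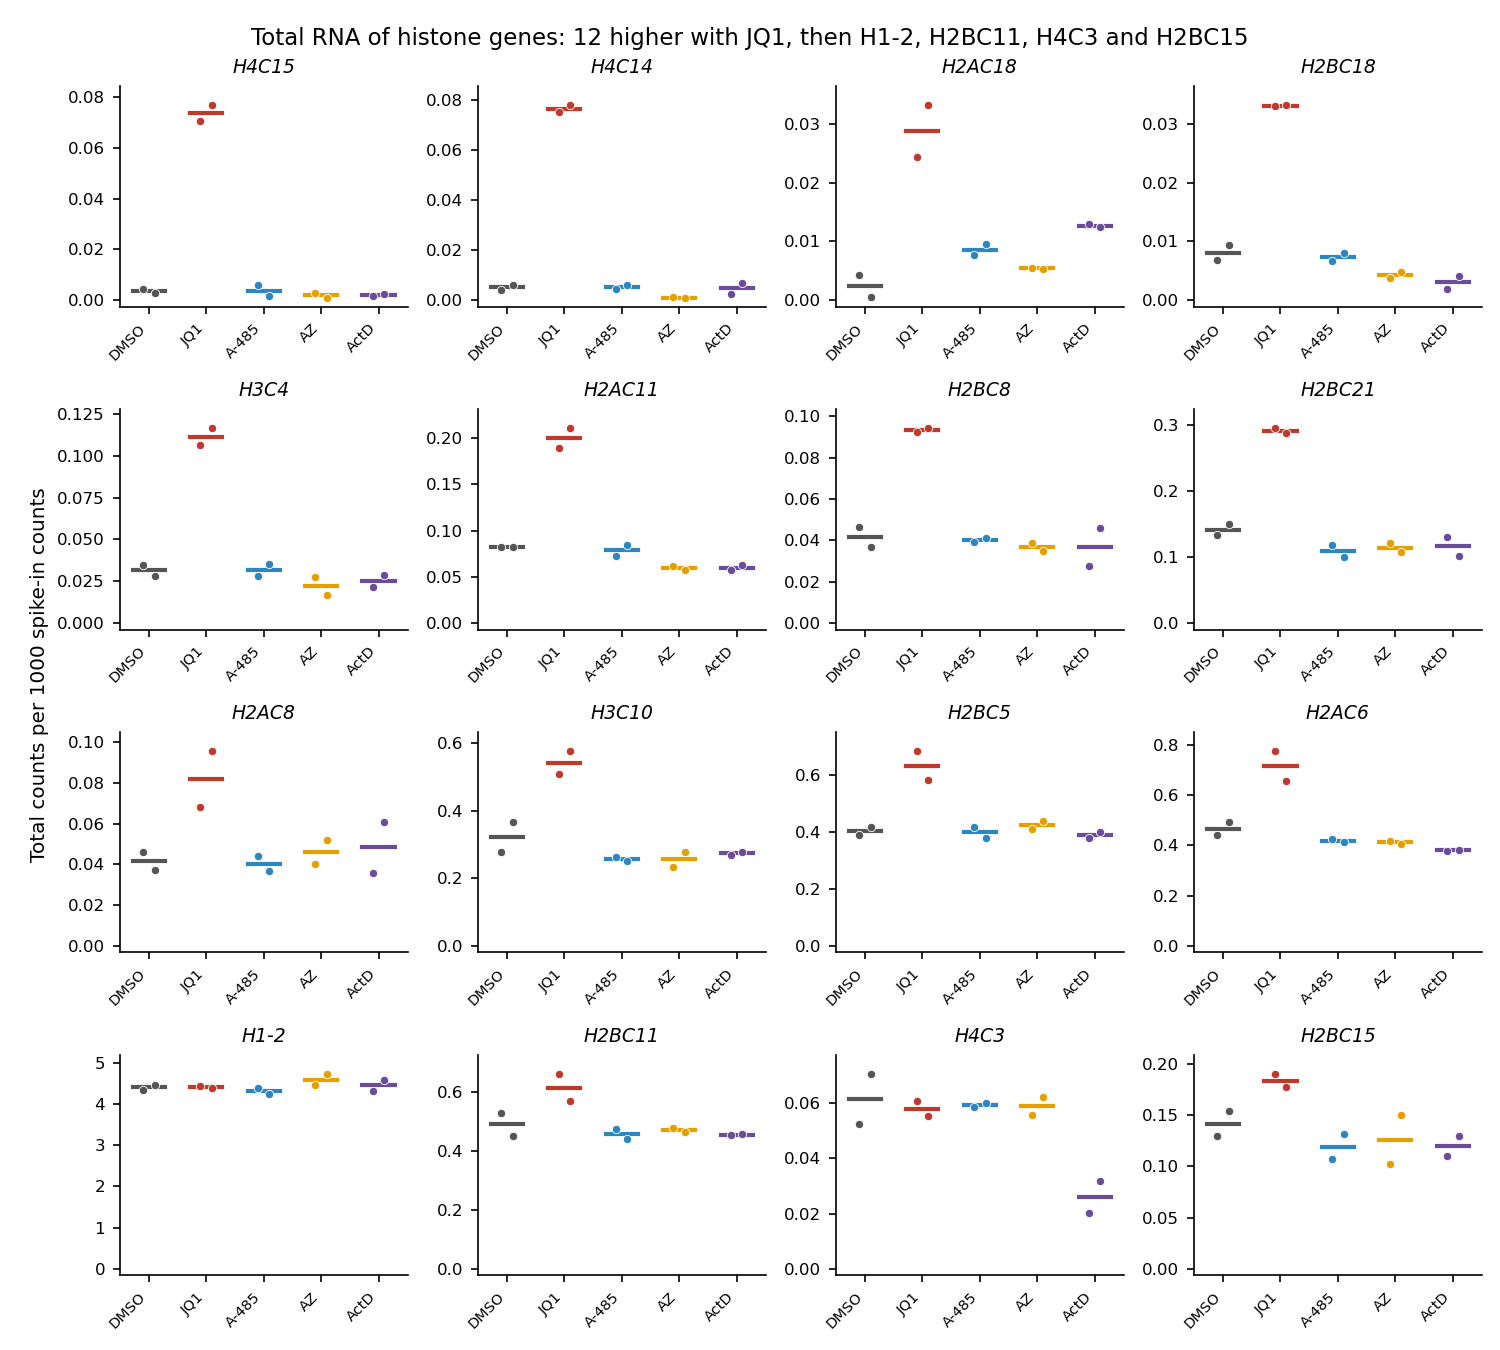
Total counts per 1000 spike-in counts (vertical axis) in the 5 groups (horizontal axis) for the 12 members called higher with JQ1 in total RNA, followed by H1-2, H2BC11, H4C3 and H2BC15, which were not; each point is a library and each line the mean of 2. The JQ1 points stand above the other 4 groups in the panels of H4C14, H4C15, H3C10 and H2BC5 and level with them in that of H1-2.

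H4C15 had 8 and 5 total counts with DMSO and 156 and 162 with JQ1 (log2 4.37 ± 0.50, edgeR-adjusted p = 1.18e-07). H4C14 had 8 and 11 with DMSO and 166 and 164 with JQ1 (log2 3.88 ± 0.44, edgeR-adjusted p = 1.15e-07). H2AC18 had 8 and 1 with DMSO and 54 and 70 with JQ1 (log2 3.54 ± 0.60, edgeR-adjusted p = 0.000105), with 5.56 and 2.75 when DMSO replicate 1 or 2 was left out. These genes went from near silence to a modest level, and their JQ1 libraries did not overlap with any other group.

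The more abundant members rose by less. H3C10 had 525 and 668 total counts with DMSO and 1126 and 1216 with JQ1 (log2 0.75 ± 0.13, edgeR-adjusted p = 0.000198). H2BC5 had 739 and 758 with DMSO and 1513 and 1228 with JQ1 (log2 0.65 ± 0.12, edgeR-adjusted p = 0.00027). H2AC6 had 837 and 892 with DMSO and 1712 and 1383 with JQ1 (log2 0.62 ± 0.12, edgeR-adjusted p = 0.000395). In all 3 the JQ1 libraries stood above the 8 others. H2BC21 (log2 1.04 ± 0.16), H2AC11 (1.29 ± 0.19) and H3C4, an H3 gene at chr6:26196840-26197250 (1.82 ± 0.27), rose as well, with edgeR-adjusted p-values of 3.07e-05, 9.39e-06 and 1.2e-05.

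The remaining 3 calls in total RNA were less secure. H2BC8 had 88 and 67 counts with DMSO and 205 and 199 with JQ1 (log2 1.16 ± 0.25, edgeR-adjusted p = 0.0021), with 1.01 and an edgeR-adjusted p of 0.0987 without DMSO replicate 2. H2AC8 (0.97 ± 0.26, edgeR-adjusted p = 0.0155) lost its call without DMSO replicate 1 (1.13, adjusted p = 0.0514), DMSO replicate 2 (0.83, 0.241) or JQ1 replicate 2 (0.71, 0.155). H2BC18 (2.02 ± 0.49, edgeR-adjusted p = 0.0064) lost it without DMSO replicate 1 (1.81, adjusted p = 0.0725) or 2 (2.26, 0.0631). H2BC11, the second most counted member, had 1003 and 821 total counts with DMSO and 1462 and 1203 with JQ1 and was not called (0.33 ± 0.12, edgeR-adjusted p = 0.0754). H4C3 (chr6:26103876-26104310, plus strand), an H4 gene, had 99 and 128 with DMSO and 134 and 117 with JQ1 (-0.08 ± 0.25, edgeR-adjusted p = 0.867), with the opposite sign from H4C14 and H4C15.

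Several H2A and H2B genes lie head to head, their starts a short way apart on opposite strands, and 5 such pairs had both genes tested in total RNA. H2BC8 and H2AC8, with 283 bases between them, changed by 1.16 and 0.97 with JQ1, and H2BC4 and H2AC6, with 219 bases between them, by 0.45 and 0.62. H2BC11 and H2AC11, 292 bases apart, changed by 0.33 and 1.29. H2AC25 and H2BC26, 234 bases apart, changed by 0.32 and 2.00, and H2BC21 and H2AC20, 323 bases apart, by 1.04 and -0.45. H2BC26 and H2AC20 have low counts (SE 0.89 and 1.10), so the unequal values of the last 2 pairs lie within or near their errors.

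Promoter sequences from RefSeq (GRCh38.p14, from 250 bases before to 50 after the start) were matched for 63 of the 68 genes. They are shown for 3 genes that rose together with JQ1, with every TATA box (TATAAA), octamer (ATTTGCAT) and CCAAT box, on either strand, in capitals.
H4C14 (chr1:149832407-149832706, plus strand): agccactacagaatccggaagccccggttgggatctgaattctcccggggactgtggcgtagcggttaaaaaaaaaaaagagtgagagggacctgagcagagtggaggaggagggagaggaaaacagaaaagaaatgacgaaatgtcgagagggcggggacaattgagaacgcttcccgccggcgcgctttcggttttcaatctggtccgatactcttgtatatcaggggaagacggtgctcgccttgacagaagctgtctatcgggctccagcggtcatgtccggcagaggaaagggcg
H2BC21 (chr1:149886633-149886932, minus strand): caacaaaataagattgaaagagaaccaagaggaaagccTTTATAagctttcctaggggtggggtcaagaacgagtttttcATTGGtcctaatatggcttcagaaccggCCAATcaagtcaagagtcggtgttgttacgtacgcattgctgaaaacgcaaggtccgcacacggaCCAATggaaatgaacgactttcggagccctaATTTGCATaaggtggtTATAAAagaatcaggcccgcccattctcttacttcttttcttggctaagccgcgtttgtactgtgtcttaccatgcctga
H3C10 (chr6:27809801-27810100, plus strand): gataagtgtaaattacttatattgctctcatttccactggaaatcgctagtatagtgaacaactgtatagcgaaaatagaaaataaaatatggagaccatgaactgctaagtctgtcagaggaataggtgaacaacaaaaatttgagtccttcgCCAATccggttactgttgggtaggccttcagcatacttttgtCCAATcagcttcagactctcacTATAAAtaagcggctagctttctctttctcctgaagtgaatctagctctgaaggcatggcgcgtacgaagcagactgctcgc
TATAAA was in 42 of the 63 promoters (66.7%, against 11.5% of 35116 promoters in the table), CCAAT in 53 (84.1% against 34.6%) and the octamer, the site known for the factor POU2F1, in 26 (41.3% against 1.77%). The octamer was in 14 of 18 H2B, 11 of 16 H2A and 1 of 11 H3 promoters, and in 0 of 13 H4 and 0 of 5 H1 promoters. H4C14 and H4C15, the genes with the largest changes in total RNA, held none of the 3 motifs in this window, while H2BC21 held all 3 and H3C10 held TATAAA and CCAAT. A match is a run of letters and not a measured site.

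The share of reads that carried the label measures RNA made in the last hour against all RNA present. In DMSO the family's labelled share was 2.14%, against 2.77% over all genes. H1-2, at 0.373%, held 16346 of the family's 25948 total counts in DMSO and so weighed heavily on this pooled share. By class the DMSO share was 5.55% for H2A, 4.44% for H2B, 5.74% for H3 and 10.3% for H4. Each of these classes lay above the share of all genes. With JQ1 the family's share was 6.41%, while that of all genes was 1.97%. Among the 14 members with at least 100 total counts in DMSO, the share ran from 0.373% for H1-2 to 14.1% for H2BC15. The median was 2.87%, against a median of 3.71% over the 10409 genes with as many counts. With actinomycin D the share of H2BC15 was still 2.78%, against 0.00905% over all genes. Whether all its labelled reads were new RNA was not tested.

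H4C14, H4C15 and H3C14, which overlaps H4C14 on the other strand, had the highest labelled shares of the members tested. The labelled share of H4C15 was 76.9% with DMSO (95% Wilson interval 49.7 to 91.8) and 76.4% with JQ1 (71.5 to 80.7). That of H4C14 was 68.4% (46.0 to 84.6) and 65.8% (60.5 to 70.7). For H3C14, 4 of 4 reads were labelled with DMSO and 35 of 41 with JQ1. Most reads of these genes were therefore labelled with and without JQ1, and the change in log2 odds was 0.03 ± 0.82 for H4C15 (edgeR-adjusted p = 0.985), an SE too large to show that the shares were alike. In H2BC5 the share was 2.67% (1.97 to 3.62) with DMSO and 7.44% (6.52 to 8.49) with JQ1. The intervals cover counting error only.

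In a fit of labelled against unlabelled reads, 1 of 17 members, H2BC5, had a higher labelled share with JQ1 and 0 a lower one by edgeR (7 and 0 at an unadjusted p below 0.05), against 0.363% of all genes higher and 15.3% lower. The H2BC5 log2 odds rose by 1.55 ± 0.48 (edgeR-adjusted p = 0.0188). This call was lost without DMSO replicate 2 (1.00, adjusted p = 0.356), without JQ1 replicate 1 (1.33, adjusted p = 0.109) and in limma (1.61, limma-adjusted p = 0.0910), and without DMSO replicate 1 the value was 2.28. H2BC11 had the next value, 1.26 (edgeR-adjusted p = 0.0514).

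**Figure D3:**
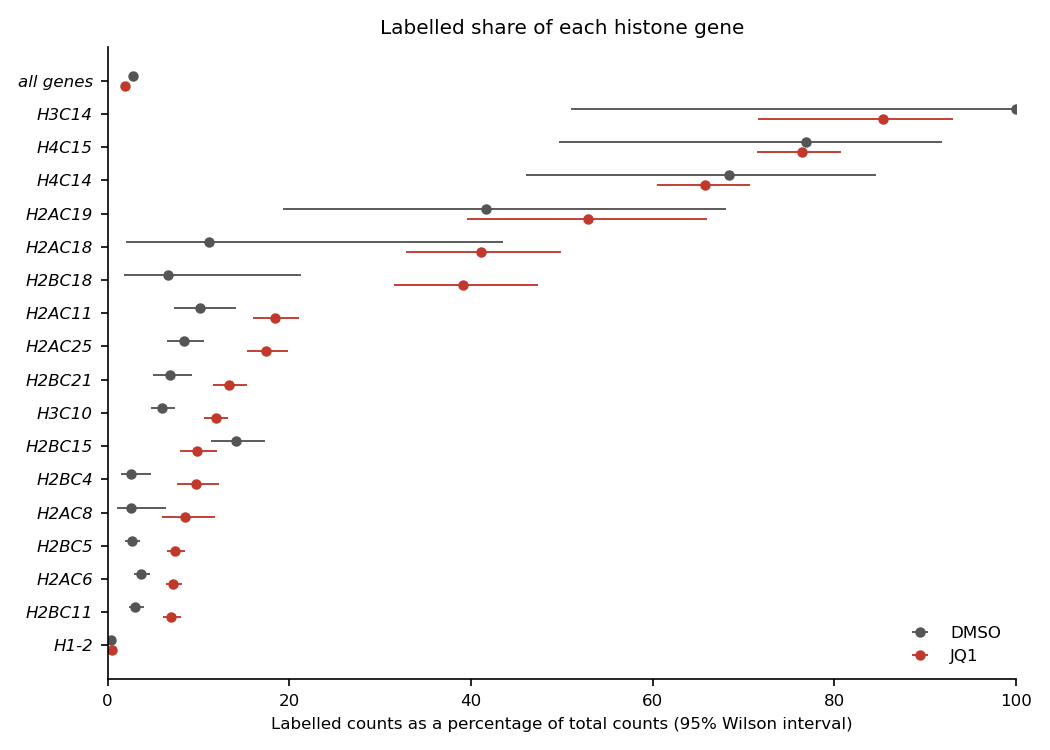
Labelled reads as a percentage of all reads with DMSO and with JQ1 for the 17 members tested in labelled RNA and for all genes together, each point the sum of 2 libraries with its 95% Wilson interval. H3C14, H4C15 and H4C14 lie farthest to the right under both conditions, most other members lie higher with JQ1 than with DMSO, and all genes together lie lower.

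Set beside each other on the spike-in scale, labelled and total reads rose by different amounts. From DMSO to JQ1 the family gained 0.401 labelled and 1.60 total counts per 1000 spike-in counts, so the labelled gain was 25.0% of the total gain. It was 71.6% for the H4 genes, but 23.0% for H2A, 18.6% for H2B and 18.7% for H3. For single genes it was 76.4% in H4C15, 20.6% in H3C10, 19.6% in H2BC21 and 15.8% in H2BC5. Reads without a conversion include RNA made before treatment and RNA made in its first, unlabelled hour. They also include labelled-hour RNA in which no changed base was read. These sources cannot be told apart, and the part of each in the gain was not tested.

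With A-485 no member was called higher. H2AC18 had the largest rise, with 3 and 10 labelled counts against 0 and 1 with DMSO (log2 3.33), and was not called. The family's labelled sums were 153 and 227 counts against 282 and 272 with DMSO, or 0.0960 ± 0.0260 per 1000 spike-in counts and 64.4% of DMSO, where labelled RNA as a whole stood at 91.4%. Of the 17 members, 0 were higher and 2 lower by edgeR, with 1 higher and 4 lower at an unadjusted p below 0.05 and 0 and 1 by DESeq2. Among all genes 0.163% were higher and 4.86% lower. Medians were -0.76 for members and -0.09 for all genes.

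The 2 genes called lower were H3C10 and H2BC21. H3C10 had 9 and 11 labelled counts with A-485 against 24 and 47 with DMSO (log2 -1.91 ± 0.49, edgeR-adjusted p = 0.00306). Its call was lost without DMSO replicate 2 (-1.31, adjusted p = 0.531) and without either A-485 library (-1.78 and -2.06, adjusted p = 0.114 and 0.0571). H2BC21 had 0 and 7 with A-485 against 24 and 12 with DMSO (log2 -2.41 ± 0.69, edgeR-adjusted p = 0.0142). Its value was -1.44 without A-485 replicate 1 (adjusted p = 0.593), -7.29 without A-485 replicate 2, and -1.86 without DMSO replicate 1 (adjusted p = 0.555), and DESeq2 did not call it (-2.45, adjusted p = 0.788). So both rest on few counts, and in each the A-485 libraries lay below the DMSO libraries. H4C15 (0.05), H4C14 (-0.09) and H2AC6 (-0.03) were near 0 on the log2 scale.

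In total RNA with A-485, 0 of 25 members were called in either direction by edgeR or DESeq2, with 1 higher and 3 lower at an unadjusted p below 0.05. Among all genes 0.0343% were higher and 1.2% lower. The family level was 6.65 ± 0.185 per 1000 spike-in counts, 95.2% of DMSO, and the median member changed by -0.10 against -0.04 for all genes. No member's labelled share was called higher or lower with A-485 by edgeR (0 and 3 at an unadjusted p below 0.05), against 0.025% of genes higher and 2.63% lower.

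JQ1 and A-485 were compared directly, since a gene can pass one test and miss another without the drugs differing. In labelled RNA 14 of 17 members were higher with JQ1 than with A-485 and 0 lower by edgeR (9 and 0 by DESeq2), against 3.14% and 24.8% of all genes. Of the 8 members that passed the count minimum without JQ1, 7 were higher. H3C10 differed by 3.66 ± 0.44 on the log2 scale (edgeR-adjusted p = 6.06e-14), H4C15 by 4.31 ± 0.54 (3.95e-13) and H2BC21 by 4.42 ± 0.61 (8.37e-11). Of these, H4C15 could be tested only through its JQ1 libraries. Leaving out A-485 replicate 1 or 2 gave 6.64 or 3.45 for H4C15 and 3.45 or 9.30 for H2BC21, each still called. H1-2 also differed, by 1.86 ± 0.52 (edgeR-adjusted p = 0.00307), but not without A-485 replicate 1 (1.66, adjusted p = 0.0647) or JQ1 replicate 2 (1.26, adjusted p = 0.171). The number of members higher was 9 without JQ1 replicate 1 and 8 without JQ1 replicate 2. H2BC15 did not pass (0.72, edgeR-adjusted p = 0.266).

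In total RNA 16 of 25 members were higher with JQ1 than with A-485 and 0 lower by edgeR (15 and 0 by DESeq2), against 1.2% and 5.38% of all genes. Of the 21 members that passed the count minimum without JQ1, 14 were higher. H2BC21 differed by 1.41 ± 0.17 (edgeR-adjusted p = 1.17e-07) and H3C10 by 1.08 ± 0.14 (5.2e-07). Without A-485 replicate 1 the count was 9 and without A-485 replicate 2 it was 10, and H2BC11, H2BC15, H2BC4, H2AC8, H2AC18 and H3C14 were lost both times. This contrast and the contrast with DMSO share the JQ1 libraries.

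**Figure D4:**
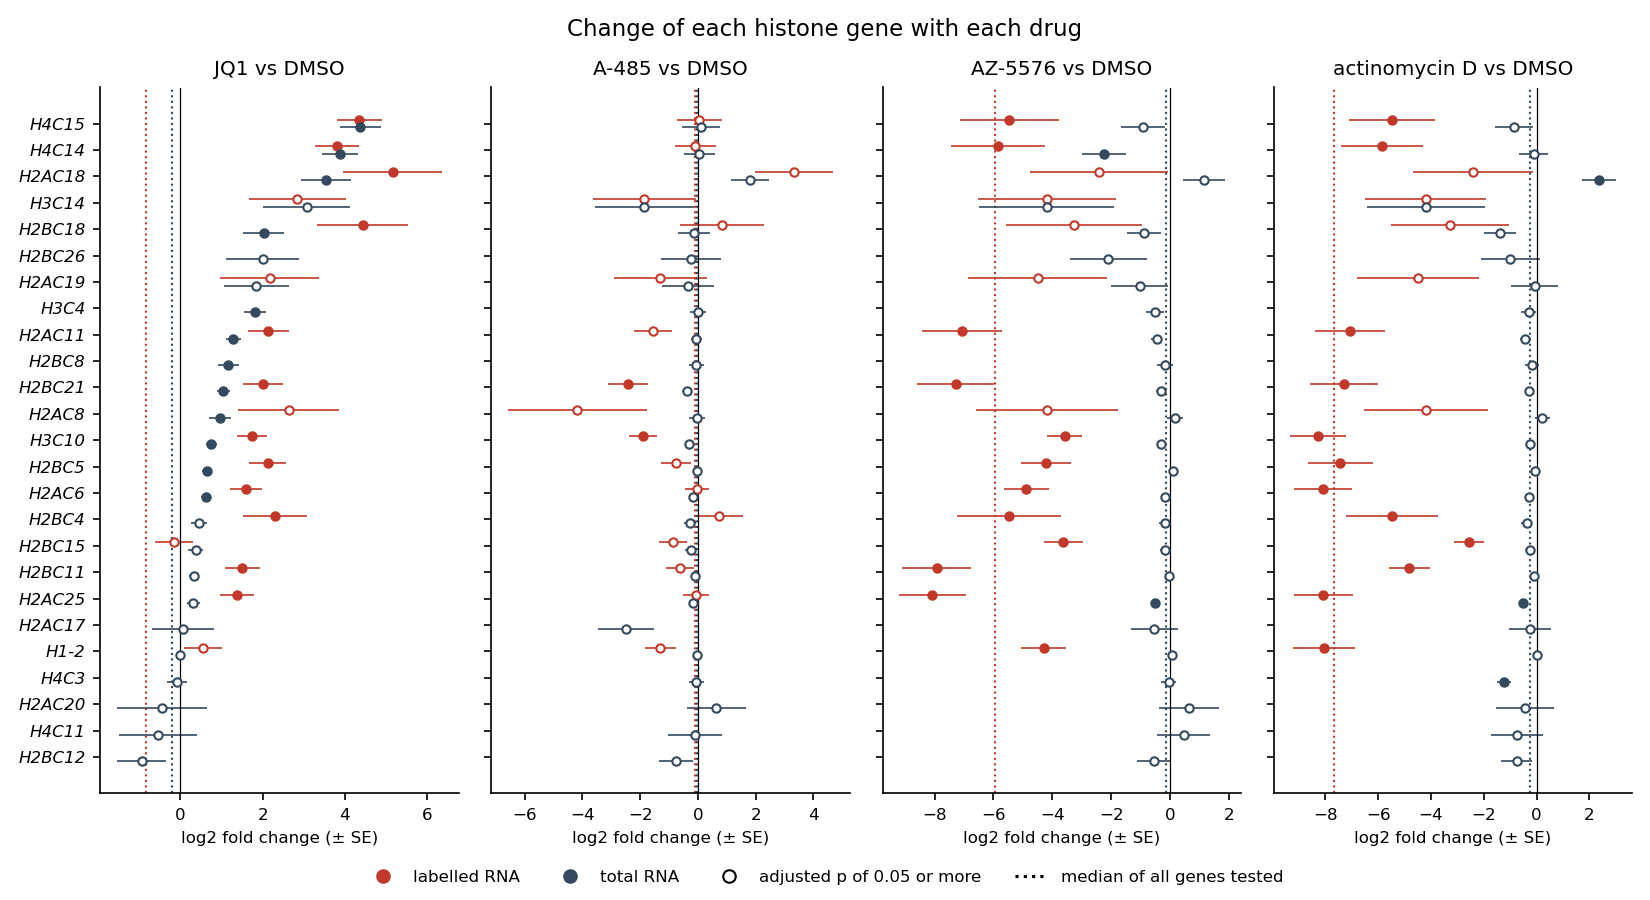
Log2 fold change ± SE against DMSO (horizontal axis) of the 25 tested members (vertical axis) for each of the 4 drugs, labelled RNA in red and total RNA in dark blue, with open symbols where the edgeR-adjusted p was 0.05 or more; the dotted lines are the medians of all genes. With JQ1 the members lie mostly above the medians of all genes, and with AZ-5576 and actinomycin D the labelled values lie far below 0 while the total values lie near it.

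AZ-5576 and actinomycin D almost emptied labelled RNA of histone reads. The family had 9 and 13 labelled counts with AZ-5576, 3.76% of DMSO per spike-in count, where labelled RNA as a whole stood at 12.5%. By edgeR 12 of 17 members were lower and 0 higher, against 94.7% of all genes lower and 0.2% higher. The median was -4.49 for members and -5.94 for all genes. H2BC11, H2AC25, H2BC21, H2AC11, H4C14 and H4C15 had 0 labelled counts in both AZ-5576 libraries. Against a floor of 3 counts over the group, H2AC25 was at least 21.6-fold lower and H4C15 at least 3.49-fold lower. H3C10, with 1 and 5 counts, was 12.4-fold lower (fitted log2 -3.59, and -2.95 or -4.98 without AZ-5576 replicate 1 or 2, and -2.99 without DMSO replicate 2). The 5 members that were not called (H3C14, H2AC18, H2BC18, H2AC19 and H2AC8) had at most 4 counts in a DMSO library.

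With actinomycin D 17 labelled counts of 3024 came from the family, and 14 of these from H2BC15. That gene had 5 and 9 labelled counts, against 33 and 41 with DMSO, and was 5.97-fold lower (counting interval of the ratio 0.0874 to 0.299). The other members with any count had 3 between them. Again 12 of 17 members were lower and 0 higher by edgeR, against 99.2% and 0% of all genes. By the floor of 3 counts over the group, H3C10 was at least 26.7-fold lower, H2AC6 at least 23.7-fold and H1-2 at least 22.9-fold. Scaled by TMM instead, H2BC15 took the opposite sign (2.93 against -2.56 with the spike-in), as did H2BC11 (0.53 against -4.82, the latter being -3.95 or -7.92 without actinomycin D replicate 1 or 2). All contrasts with DMSO share the 2 DMSO libraries.

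Total RNA of the family, most of it H1-2, stayed close to its DMSO level with both drugs over the 2 h. It stood at 98.7% of DMSO with AZ-5576 and at 95.1% with actinomycin D. H1-2 held 17892 of the 26867 counts with AZ-5576 and 18667 of 27896 with actinomycin D. With AZ-5576 the summed classes changed on the log2 scale by -0.25 (H2A), -0.07 (H2B), -0.35 (H3) and -0.15 (H4). With actinomycin D they changed by -0.30, -0.15, -0.25 and -1.06. The medians over all genes were -0.15 and -0.27. With AZ-5576 2 of 25 members were lower and 0 higher by edgeR (4 and 0 at an unadjusted p below 0.05, 1 and 0 by DESeq2), against 12.9% of all genes lower and 0.782% higher. H2AC25 had 279 and 264 counts against 370 and 370 with DMSO (log2 -0.51 ± 0.16, edgeR-adjusted p = 0.0258). Its call was lost without AZ-5576 replicate 2 (-0.39, adjusted p = 0.273), DMSO replicate 1 (-0.54, 0.0672) or DMSO replicate 2 (-0.48, 0.156), and under TMM (-0.36, 0.134). H4C14 had 2 and 2 counts against 8 and 11 (log2 -2.25 ± 0.74, edgeR-adjusted p = 0.0368), and its call did not survive leaving out any 1 of the 4 libraries (-2.49 to -1.97) or the use of DESeq2 (-2.32, adjusted p = 0.0694).

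With actinomycin D 2 members were lower and 1 higher in total RNA by edgeR (5 and 1 at an unadjusted p below 0.05), against 19.7% and 0.336% of all genes. H4C3 fell from 99 and 128 counts to 41 and 69 (log2 -1.23 ± 0.27, edgeR-adjusted p = 0.000727), the clearest fall of a member in total RNA, and the H4 class as a whole stood at 47.7% of DMSO. H2AC25 fell by 0.51 on the log2 scale (edgeR-adjusted p = 0.0191), and was not called without DMSO replicate 2, either actinomycin D library or under TMM (-0.26, adjusted p = 0.295). H2AC18 had 26 and 27 total counts against 8 and 1 (log2 2.36 ± 0.63, edgeR-adjusted p = 0.00624), while its labelled counts were 0. Its value was 4.38 without DMSO replicate 1 and 1.57 without DMSO replicate 2 (adjusted p = 0.163).

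Against AZ-5576, JQ1 gave higher labelled RNA in 17 of 17 members, where 84.9% of all genes were higher and 0.388% lower, so this count is close to that of genes at large, and 9 of the 17 were tested only through their JQ1 libraries. In total RNA 16 of 25 members were higher with JQ1 than with AZ-5576 and 0 lower by edgeR, against 4.16% and 0.707% of all genes. Without H2AC19, H2BC26, H3C14 and H4C15, which reached the count minimum only through JQ1, 12 of 21 were higher and 0 lower, with a median of 0.79 against -0.05 for all genes. With AZ-5576 13 of 17 members had a lower labelled share than with DMSO and 0 a higher one by edgeR, against 93.3% and 0.0625% of all genes.

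Histone genes listed as replication-independent, which in general have ordinary polyadenylated mRNA, were measured in the same libraries. Of 8 tested in labelled RNA with JQ1, 2 rose and 1 fell by edgeR, with a median of 0.19, beside 1.26% of all genes higher, 28.6% lower and a median of -0.85. Under TMM 4 of the 8 were higher and 0 lower (median 1.02). H3-3B, which encodes the variant H3.3, had 575 and 571 labelled counts with DMSO and 965 and 872 with JQ1 (log2 0.46 ± 0.17, edgeR-adjusted p = 0.0271). H2AZ1, which encodes the variant H2A.Z, had 279 and 294 with DMSO and 510 and 482 with JQ1 (log2 0.57 ± 0.20, edgeR-adjusted p = 0.0179). CENPA, the centromeric H3 variant, fell by 1.44 (edgeR-adjusted p = 0.0367), but under TMM, on which the median gene moved up by 0.83, it was at -0.62 and not called. In total RNA 0 of the 8 were called by edgeR, and 2 were higher under TMM.

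On the spike-in scale no listed gene that makes or removes histone mRNA passed the test as higher with JQ1. Of 22 tested genes of histone locus transcription and 3′ processing, 8 fell in labelled RNA and 0 rose with JQ1. Their median was -0.86 beside -0.85 for all genes, of which 28.6% were lower. Under TMM 0 were lower and 1 was higher, the hairpin-binding gene SLBP (log2 1.19, edgeR-adjusted p = 0.000714 under TMM). POU2F1, the octamer-binding factor, fell by 1.63 (SE 0.32, edgeR-adjusted p = 7.75e-06), and by 0.80 under TMM, where it was not called (adjusted p = 0.0535). Of 10 genes of histone mRNA decay 4 fell, with a median of -1.20, and under TMM 1 did. EXOSC3, an exosome subunit, had 33 and 61 labelled counts with DMSO and 9 and 10 with JQ1 (log2 -2.52 ± 0.54, edgeR-adjusted p = 7.56e-05). In total RNA 0 of 26 genes of the first list and 1 of 10 of the second, EXOSC3 (-0.45), changed.

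Genes of general cleavage and polyadenylation bear on these values because the libraries were primed on poly(A). Of 14, 5 fell in labelled RNA with JQ1 and 0 rose (median -0.47), beside 28.6% of all genes lower and a median of -0.85, while under TMM 0 fell and 1 rose. In total RNA 1 rose, PCF11 (log2 0.38 ± 0.12, edgeR-adjusted p = 0.0443), a cleavage factor, and CSTF1 and CLP1 fell. Of 17 histone chaperones 5 fell and 1 rose in labelled RNA (median -0.70), a share lower close to the 28.6% of all genes, and under TMM 1 was lower and 2 were higher. The one that rose, ASF1B, an H3-H4 chaperone, had 80 and 53 counts with DMSO and 146 and 157 with JQ1 (log2 0.97 ± 0.30, edgeR-adjusted p = 0.0071).

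Genes known to be expressed in S phase were measured beside the family. Of 23, 8 fell and 1 rose in labelled RNA with JQ1 (median -0.74), beside 28.6% of all genes lower, and 3 fell and 0 rose in total RNA, beside 7.35% of all genes lower. Under TMM 1 was lower and 4 higher in labelled RNA, and 1 lower and 2 higher in total RNA. MCM3, a subunit of the replicative helicase, had 337 and 271 labelled counts with DMSO and 106 and 148 with JQ1 (log2 -1.47 ± 0.23, edgeR-adjusted p = 6.87e-09). CDT1, a replication licensing factor, fell by 0.50 on the log2 scale in total RNA (edgeR-adjusted p = 0.00151). The part of cell cycle position in the histone values was not tested. With A-485, POLA1, a DNA polymerase subunit (log2 1.81), was the only gene of the 6 lists called in labelled RNA by edgeR with the spike-in, while 2 S phase genes were called under TMM. In total RNA with A-485 none of the lists' genes was called on either scale.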

How the data were processed

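The deposited tables hold raw whole-number counts per gene, made by the authors for human genes in labelled (T-to-C converted) and total RNA and for the Drosophila spike-in, 10 libraries each (QuantSeq 3′ FWD kit, per the labels' protocols). Per the submitters' processing notes, the tools were bedtools, Trim Galore 0.6.5 and bcl2fastq 2.17.1.14, with hg38 and dm6 as builds. The gene models, the aligner, the minimum of conversions for a labelled read, the use of strand and the handling of multiply matching reads were not given in the sources used here. 0 columns were left unused.

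Counts were fitted with edgeR 4.0.16 in R 4.3.3 (quasi-likelihood, robust, two-sided), library size set to the spike-in total, all 5 groups together, a minimum of 10 counts in 2 or more libraries, Benjamini-Hochberg adjustment over all genes tested. SE is the fold change divided by the root of F. The labelled share was fitted as labelled against unlabelled counts with a term per library. The fitting was tested on simulated data. Alternatives were DESeq2 1.42.0, limma 3.58.1, TMM, no filter, class sums, a replicate term, only the groups compared, at least 20 labelled counts and each library left out. A filter that ignores the JQ1 libraries was added after seeing the data. Fits had 5 residual degrees of freedom. The depth per library was 14916671 to 17918971 total and 1410 to 448401 labelled counts. At the few labelled counts of most members, counting error is large, and reads carry no molecular identifiers known from these sources, so intervals and floors cover counting error only.

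Named members are those called in a comparison, the most counted, and the exceptions among them, and up to 3 genes per list. The members and the gene lists were chosen with earlier results of these data known. Hairpins and transcript ends come from GENCODE 29 and promoters from RefSeq GRCh38.p14.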

Additional observations from a re-analysis of the deposited data

How the results depend on the processing

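The number of members higher with JQ1 than with DMSO in labelled RNA (12) was 6 when the count minimum ignored the JQ1 libraries, an alternative chosen after seeing the data, and 7 to 10 when a library was left out. Against A-485 it was 14, and 9 in DESeq2, 7 with that minimum and 8 to 12 with a library left out; against AZ-5576 it was 17 and 8 with that minimum. In total RNA the count against A-485 (16) was 9 to 14 with a library left out. Members lower with A-485 in labelled RNA (2) were 1 in DESeq2, 1 when only both groups were fitted, and 0 to 1 with a library left out; for the labelled share (0) they were 0 to 1. Higher labelled shares with JQ1 (1) were 3 at 20 or more labelled counts, 0 in limma, 4 with only both groups, and 0 to 1 with a library left out; lower shares with AZ-5576 (13) were 8 with only both groups.

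TMM moved the median of all genes in labelled RNA by 0.83 with JQ1, 0.12 with A-485, 3.25 with AZ-5576 and 0.97 with actinomycin D, and in total RNA by 0.20, 0.05, 0.15 and 0.25. Under TMM 15 members were higher and 0 lower with JQ1 in labelled RNA, and 13 and 0 in total RNA. Lower members in labelled RNA were 2 with AZ-5576 and 0 with actinomycin D, where 1 was higher. In total RNA TMM gave 1 higher and 0 lower with AZ-5576, and 2 higher and 1 lower with actinomycin D. Members lower in total RNA with AZ-5576 (2) were 1 in DESeq2, 1 without the filter, 1 with only both groups, and 0 to 1 with a library left out. With actinomycin D leaving out a library gave 0 to 1 higher and 1 to 3 lower. Actinomycin D values that reversed were H2BC11 (0.53) and H2BC15 (2.93) in labelled RNA under TMM, and H2AC18 in total RNA when its class was summed (-0.30). Scaled to human counts instead of the spike-in, the family's level was 405% of DMSO (labelled, JQ1), 135% (total, JQ1) and 102% (total, actinomycin D). The cause was not tested.

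Over all genes, TMM gave 444 higher and 415 lower with JQ1 in labelled RNA, against 101 and 2286 with the spike-in, and 214 and 288 in total RNA, against 122 and 1071. Leaving out a library gave 51 to 61 higher and 1049 to 1675 lower with JQ1 in labelled RNA, and 1 to 4 higher with A-485 against 13.

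Replicate numbers are shared by the groups, but replicate differences correlated by only -0.02 to 0.14 between groups, so the numbers were not taken as pairs. With the replicate block the members higher with JQ1 were 12 in labelled and 13 in total RNA, and no count of members moved by over 1.5 times; over all genes 1972 were lower with JQ1 in total RNA against 1071. With 2 libraries a group, a gene near the count minimum can lose its call with either one.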
